A study of Homo sapiens with 12 samples.

Results

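Interferon-stimulated effector genes are genes that cells switch on in response to interferon and whose products carry out much of its antiviral and growth-restraining action. A list of 48 such genes, given by name, was matched by gene symbol to the 38021 gene names of the count table, and all 48 were found. They were followed in 786O, an established clear cell renal carcinoma line without functional VHL, and in WT8, a derivative of 786O that expresses wildtype VHL. Each line carried a lentiviral pLKO.1 hairpin, either shControl (a scrambled sequence) or shBMAL1 against the clock factor BMAL1, so that the 4 groups were 786O shControl, 786O shBMAL1, WT8 shControl and WT8 shBMAL1, with 3 libraries each. All 4 groups, controls included, went through infection and puromycin selection, and no group was left uninfected. The labels name 1 construct, shBMAL1, so the effect of lower BMAL1 and any other effect of a hairpin cannot be told apart. The 3 libraries of a group are numbered as biological replicates, and p-values measure the spread between them. Whether these libraries come from separate infections is not stated, so the p-values may not cover the spread between infections. The lines are separate cell populations, so VHL and other differences between 786O and WT8 cannot be told apart either.

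Interferons are secreted proteins that bind paired receptors at the cell surface. Type I and type III interferons act through the kinases JAK1 and TYK2 on transcription factors such as STAT2, which works with IRF9 at the interferon-stimulated response element in the promoters of their targets. Sensors of foreign or misplaced nucleic acid, such as the RNA sensors DDX58 (RIG-I) and IFIH1 (MDA5), switch on the interferon genes themselves, and several sensors are also targets of the pathway. In tumour cells a part of this program can run at a low level without infection.

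The labels were checked on the targeted genes. ARNTL, the gene of BMAL1, had 464, 378 and 423 counts in 786O shControl and 142, 128 and 141 in 786O shBMAL1, and 332, 355 and 309 against 56, 72 and 58 counts in WT8, so every depleted library was below every control of its line. VHL had a mean of 18.8 CPM (counts relative to the library total after TMM scaling) in 786O shControl and 980.2 CPM in WT8 shControl. Total counts were between 33182005 and 36477484 per library. Pearson's r across genes, on log2 CPM, was 0.991 to 0.992 between libraries of the same group. All 7 renal epithelial and carcinoma markers on the list used here passed the filter on low counts, as did 2 of the 7 leukocyte markers, CD68 at 41.9 and ITGAM at 0.957 CPM in 786O shControl, while PTPRC and CD3E had at most 1 count in any library. These are bulk measurements, so fewer cells that express a gene and less RNA of it per cell cannot be told apart.

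Promoter sequence was examined next, since the response element is what these genes are known to share. Of the 48 members 39 had a 300-base promoter window in RefSeq (GRCh38.p14), from 250 bases before the gene start to 50 after it. IFIT2, OAS2, OASL, MX2, IFITM2, USP18, TRIM22, LAMP3 and APOL1 had none. The core of the interferon-stimulated response element, written here as GAAANNGAAA and searched on both strands, was present in 29 of the 39 windows (74.4%) and in 3.65% of the windows of all 27305 genes. The form with a spacer of 1 base, GAAANGAAA, which was added after the windows were seen and can overlap the first, was present in 14 of the 39 windows and in 3.22% of all windows. The E-box CACGTG, the sequence bound by CLOCK and BMAL1, was present in 4 of the 39 windows (10.3%), against 7.43% of all windows. The core of the hypoxia response element, ACGTG or GCGTG, the first of which lies within the E-box, was present in 13 (33.3%) against 48.4% of all windows. Windows are shown 5′ to 3′ on the strand of the gene, with matches of both spacings in capitals, for 4 genes that stand for the patterns described next. IFIT1 was lower with shBMAL1 in both lines, OAS1 and OAS3 are neighbours that moved in opposite directions in WT8, and LGALS3BP was higher with shBMAL1 in both lines.
IFIT1 (chr10:89392373-89392672, plus strand): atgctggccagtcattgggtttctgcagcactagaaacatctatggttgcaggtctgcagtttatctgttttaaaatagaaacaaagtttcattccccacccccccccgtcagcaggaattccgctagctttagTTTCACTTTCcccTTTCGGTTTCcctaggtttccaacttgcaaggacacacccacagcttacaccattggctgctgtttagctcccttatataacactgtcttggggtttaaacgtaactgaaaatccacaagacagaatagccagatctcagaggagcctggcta
OAS1 (chr12:112906712-112907011, plus strand): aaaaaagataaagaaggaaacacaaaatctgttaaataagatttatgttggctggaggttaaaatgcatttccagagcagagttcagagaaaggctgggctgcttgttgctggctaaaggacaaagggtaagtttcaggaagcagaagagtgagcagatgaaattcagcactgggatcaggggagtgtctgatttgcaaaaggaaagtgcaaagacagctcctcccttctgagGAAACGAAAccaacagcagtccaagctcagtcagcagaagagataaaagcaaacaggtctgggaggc
OAS3 (chr12:112938224-112938523, plus strand): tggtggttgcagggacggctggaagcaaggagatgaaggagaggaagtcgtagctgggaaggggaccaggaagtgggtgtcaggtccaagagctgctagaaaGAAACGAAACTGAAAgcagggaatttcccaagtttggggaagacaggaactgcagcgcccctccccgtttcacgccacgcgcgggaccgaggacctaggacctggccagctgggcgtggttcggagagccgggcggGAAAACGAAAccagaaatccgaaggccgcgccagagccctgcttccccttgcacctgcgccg
LGALS3BP (chr17:78979874-78980173, minus strand): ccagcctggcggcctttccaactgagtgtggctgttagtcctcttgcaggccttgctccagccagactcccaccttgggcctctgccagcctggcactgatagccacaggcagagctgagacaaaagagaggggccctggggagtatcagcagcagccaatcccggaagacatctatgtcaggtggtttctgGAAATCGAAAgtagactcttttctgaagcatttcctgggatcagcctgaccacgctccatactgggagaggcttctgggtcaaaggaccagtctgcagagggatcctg

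In the IFIT1 window both matches were on the strand opposite to the gene and began 116 and 103 bases before the gene start. The OAS1 window held no GAAANNGAAA but 1 match with the shorter spacer. The OAS3 window held GAAANNGAAA at 143 and 12 bases before the start, the first of them overlapping a match with the shorter spacer. LGALS3BP held it at 58 bases before the start. Of the 22 members with a window that were lower with shBMAL1 in both lines, 16 held GAAANNGAAA and 1 held an E-box. Of the 6 with a window that were higher in at least 1 line, 5 held GAAANNGAAA and 1, EIF2AK2, held an E-box. A match is a description of letters and not a measured site.

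To ask how BMAL1 depletion bears on this program, shBMAL1 was compared with shControl in each line. Most members were lower with shBMAL1 in both lines. In 786O, 33 of 47 tested members (70.2%) were called lower and 3 higher, where among all 16838 genes tested 24.4% were called lower and 24.5% higher. In WT8, 38 (80.9%) were called lower and 5 higher, against 36.9% and 32.9% of all genes tested. Lower in both lines were 28 members (59.6%), against 13.6% of all genes, and 5 were called in opposite directions in the lines, against 12.1%. A call is an adjusted p under 0.1 in the quasi-likelihood test of edgeR, with Benjamini-Hochberg adjustment over the 16838 genes tested. Every adjusted p given here comes from that test. LAMP3, a lysosomal membrane protein, had 4, 2 and 0 counts in 786O shControl, 0, 0 and 2 in 786O shBMAL1 and 0 in all WT8 libraries, and was not tested.

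The median fall was larger in WT8, where ARNTL also fell more, 5.57-fold against 3.08-fold in 786O. The median log2 change of the 47 members was -0.60 in 786O and -1.47 in WT8, where the medians over all genes tested were 0.00 and -0.04. Falls of over 2-fold were called for 9 members in 786O and for 27 in WT8, against 3.43% and 13.3% of all genes tested. With the 3 members that had 0 counts in WT8 shBMAL1 set to their bounds and the 2 without a usable fold left out, the WT8 median was again -1.47. The mean of log2(CPM + 1) over the 48 members was 4.20 to 4.22 in the 3 libraries of 786O shControl and 3.70 in each of 786O shBMAL1. It was 3.93 to 3.97 in the WT8 controls and 2.97 to 2.98 in the depleted WT8 libraries. The 4 groups did not overlap on this mean, and WT8 shBMAL1 was the lowest. The summed CPM of the members did not follow it in 786O, at 2802 ± 7 in 786O shControl and 2790 ± 41.6 in 786O shBMAL1 (SD, n = 3). LGALS3BP and APOL1, both abundant and both higher with shBMAL1 in 786O, are part of this sum, which was 2394 and 2224 CPM without LGALS3BP. In WT8 the sum was 2735 ± 44.1 with shControl and 1583 ± 20.6 with shBMAL1.

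**Figure D1:**
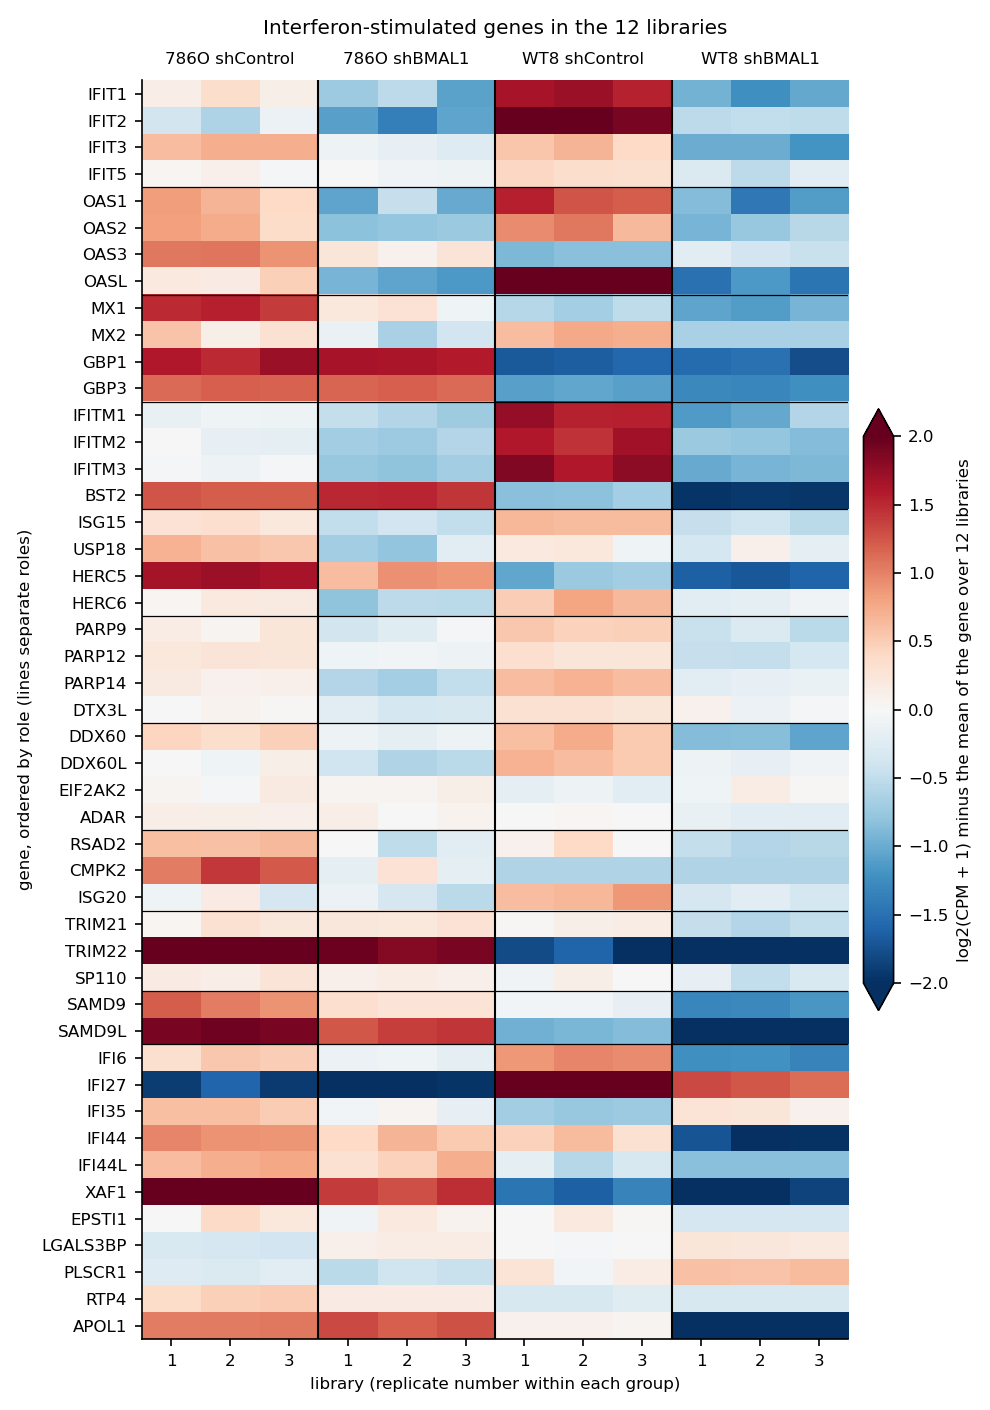
Heat map of the 47 tested members (one line of cells per gene, grouped by role) in the 12 libraries (columns, by group and replicate number), where the colour is log2(CPM + 1) minus the mean of the gene over the 12 libraries and saturates at 2 units from the mean. Most genes are bluer in the shBMAL1 columns than in the shControl columns of the same line, while GBP1 and GBP3 follow the line, and LGALS3BP is redder in the shBMAL1 columns of both lines.

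Other features of the libraries moved with these groups. The 10 dividing-cell markers on the list used here were all lower in WT8 shControl than in 786O shControl, against 40.2% of all genes tested. All 10 markers were higher with shBMAL1 in WT8, against 32.9% of all genes tested. Their summed level was 2326 to 2440 CPM in the 786O controls, 2398 to 2518 with shBMAL1 in 786O, 526.5 to 551.5 in the WT8 controls and 2273 to 2294 with shBMAL1 in WT8. Their part in the changes of the interferon-stimulated genes in WT8 was not tested. In 786O the 10 markers had a median log2 change of 0.06, with 2 lower and 4 higher, against 24.4% and 24.5% of all genes tested. Their part in the changes in 786O was not tested. VHL itself fell with shBMAL1 in WT8, from 980.2 to 647 CPM, and its part in these changes was not tested either. Of the 7 leukocyte markers 2 were tested, CD68 and ITGAM, and both were lower with shBMAL1 in both lines, as were 13.6% of all genes tested. The summed level of the 7 was 41.9 to 44.3 CPM in the 786O controls, 32.0 to 36.2 with shBMAL1 in 786O, 28.9 to 35.5 in the WT8 controls and 18.8 to 22.9 with shBMAL1 in WT8. The pan-leukocyte marker PTPRC had 1 count in all 12 libraries together and the T cell marker CD3E had 0. Of the 7 renal epithelial and carcinoma markers, 6 were lower and 1 higher with shBMAL1 in WT8 (median log2 change -0.49), against 36.9% and 32.9% of all genes tested. In 786O 2 were lower and 4 higher (median 0.16), against the 24.4% and 24.5% given above, and CDH6 rose 2.78-fold. The part of these 7 markers was not tested. The 4 endothelial markers summed to a mean of at most 1.15 CPM in any group.

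The oligoadenylate synthetases, which sense double-stranded RNA and set off RNA decay through RNase L, had a median log2 change of -2.15 in 786O and -3.99 in WT8, yet 1 of the 4 rose in WT8. OAS1, OAS3 and OAS2 lie side by side on the plus strand of chromosome 12 (GRCh37, 113343661 to 113371024, 113375856 to 113414265 and 113416200 to 113449528). OAS1 had 165, 149 and 117 counts in 786O shControl and 20, 48 and 22 in 786O shBMAL1, a 4.78-fold fall (log2 -2.26, SE 0.29, adjusted p 9.36e-07). In WT8 it went from 318, 234 and 241 to 30, 8 and 19 counts, a 14.4-fold fall (log2 -3.84, SE 0.30, adjusted p 8.57e-11). OAS2 behaved likewise, from 81, 77 and 51 to 3, 4 and 5 counts in 786O and from 99, 102 and 73 to 0, 5 and 11 in WT8. OAS3, between them, fell in 786O from 2041, 2119 and 1890 to 1163, 1043 and 1177 counts (log2 -0.84, SE 0.07, adjusted p 3.88e-12). In WT8 it rose from 538, 532 and 568 to 906, 800 and 767 counts (log2 0.54, SE 0.08, adjusted p 1.78e-07), with every shBMAL1 library above every shControl library. OASL (chromosome 12, 121455566 to 121477049), a related protein without synthetase activity that strengthens RIG-I signalling, had the largest fall in WT8 under the naming rule, from 608, 542 and 583 to 15, 29 and 16 counts, or 29.8-fold (log2 -4.90, SE 0.18, adjusted p 6.02e-23). In 786O it fell 4.13-fold, from 119, 119 and 156 to 37, 31 and 27 counts.

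The IFIT proteins, which bind viral RNA and block its translation, form a cluster on the plus strand of chromosome 10 from IFIT2 (91043451) to IFIT5 (91181362). All 4 fell with shBMAL1 in WT8, with a median log2 change of -2.25, and IFIT1, IFIT2 and IFIT3 also fell in 786O. IFIT1 went from 419, 502 and 425 to 217, 255 and 165 counts in 786O (log2 -1.08, SE 0.12, adjusted p 4.55e-09). In WT8 it went from 1353, 1342 and 1245 to 198, 155 and 183 counts (log2 -2.94, SE 0.12, adjusted p 8.48e-21). IFIT2 and IFIT3, its partners in RNA-binding complexes, fell 2.00-fold and 1.89-fold in 786O and 6.76-fold and 3.33-fold in WT8. IFIT5, at the end of the cluster, had the smallest change of the 4, 1.66-fold in WT8 (log2 -0.73), and was not called in 786O (log2 -0.10, adjusted p 0.348). IFIT2 and IFIT3 overlap exons of LIPA on the opposite strand, and the counting is not stated to use strand. IFIT2 also overlaps an unnamed non-coding gene by 524 bases on the same strand.

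The IFITM proteins keep viruses from fusing with cell membranes and sit together near the end of chromosome 11 (IFITM2 from 303655, IFITM1 from 310041, IFITM3 from 319676). All 3 fell in both lines, and all 3 had a more negative change in WT8 by the test of the difference described further on. IFITM1 had 80, 87 and 87 counts in 786O shControl and 58, 51 and 44 in 786O shBMAL1 (log2 -0.73, SE 0.20, adjusted p 0.0037). In WT8 it went from 426, 336 and 365 to 26, 31 and 55 counts, a 10.4-fold fall (log2 -3.38, SE 0.19, adjusted p 1.14e-17). IFITM3, the most abundant of them, went from 139 ± 4.27 to 84.8 ± 3.43 CPM in 786O and from 487 ± 42.1 to 74.5 ± 3.00 CPM in WT8 (SD, n = 3). The 3 genes are close copies of one another, IFITM1 and IFITM2 also share exons with an unnamed gene on the same strand, and how reads that align to several places were assigned is not stated, so their separate values are uncertain. BST2 (tetherin, chromosome 19, 17513748 to 17516439), which holds budding viruses at the cell surface, went the other way in 786O, from 6098, 6033 and 6079 to 7403, 7455 and 6975 counts, a 1.20-fold rise (log2 0.26, SE 0.05, adjusted p 1.62e-05). In WT8 it fell from 1507, 1434 and 1683 to 687, 698 and 692 counts (log2 -1.21, SE 0.06, adjusted p 2.77e-20).

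Among the interferon-induced GTPases, the MX and GBP genes parted. MX1 (chromosome 21, 42791947 to 42841998), which traps viral nucleoproteins in the cytoplasm, fell 3.33-fold in 786O, from 214, 229 and 205 to 69, 75 and 50 counts (log2 -1.74, SE 0.20, adjusted p 3.32e-09). In WT8 it was low throughout, at 27, 21 and 30 counts with shControl and 9, 7 and 13 with shBMAL1 (log2 -1.47, SE 0.33, adjusted p 1.92e-04). Its neighbour MX2 had 51, 57 and 58 counts in WT8 shControl and 0 in all 3 libraries of WT8 shBMAL1, a fall of at least 19.2-fold against a floor of 3 counts per library. In 786O MX2 had 45, 24 and 33 counts with shControl and 15, 0 and 7 with shBMAL1 (adjusted p 9.20e-04). GBP1 (chromosome 1, 89517565 to 89531043), a GTPase that coats intracellular bacteria and is a classic target of interferon gamma, was called in neither line. It had 2705, 2556 and 3036 counts in 786O shControl and 2850, 2816 and 2721 in 786O shBMAL1 (log2 0.02, adjusted p 0.869), and 267, 256 and 288 against 305, 313 and 249 counts in WT8 (log2 0.04, adjusted p 0.724). GBP3 was not called in 786O and fell 1.16-fold in WT8 (log2 -0.21).

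In the system of ISG15, a ubiquitin-like protein that is attached to other proteins, all 4 members fell in 786O and 3 fell in WT8. ISG15 went from 819, 868 and 795 to 469, 511 and 470 counts in 786O (log2 -0.77, SE 0.08, adjusted p 2.78e-10) and from 1160, 1064 and 1129 to 522, 543 and 487 in WT8 (log2 -1.17, SE 0.08, adjusted p 9.78e-16). HERC5, the ligase that attaches ISG15, fell 1.93-fold in 786O and 2.88-fold in WT8, and its relative HERC6 1.76-fold and 1.80-fold. USP18 (chromosome 22, 18632885 to 18660164), which removes ISG15 and restrains the type I receptor, fell from 244, 227 and 220 to 73, 66 and 114 counts in 786O (log2 -1.45, SE 0.18, adjusted p 2.42e-08). In WT8 it had 173, 166 and 137 counts with shControl and 109, 163 and 126 with shBMAL1, groups that overlapped, and was not called (log2 -0.32, SE 0.17, adjusted p 0.111). Without WT8 shControl replicate 3, WT8 shBMAL1 replicate 2 or 786O shBMAL1 replicate 3, USP18 was called lower in WT8, at log2 -0.43, -0.48 and -0.31. USP18 has near-identical partial copies on chromosome 22, and its values are uncertain for that reason.

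The ADP-ribosyltransferases PARP9, PARP12 and PARP14 and the ubiquitin ligase DTX3L, the partner of PARP9, fell in both lines. Their log2 changes were -0.38, -0.32, -0.71 and -0.34 in 786O, and -0.94, -0.71, -0.82 and -0.32 in WT8, in that order. PARP9 and DTX3L face away from each other from a shared start region and their exons overlap by 139 bases. Of the RNA helicase-like genes, DDX60 fell 1.49-fold in 786O and 3.11-fold in WT8, and DDX60L 1.47-fold and 1.68-fold. EIF2AK2 (chromosome 2, 37326353 to 37384665), the kinase PKR that halts translation on sensing double-stranded RNA, did not join them. It had 1338, 1286 and 1496 against 1369, 1356 and 1428 counts in 786O (log2 0.01, adjusted p 0.911), and in WT8 it rose from 1204, 1213 and 1176 to 1334, 1556 and 1434 counts, a 1.16-fold rise (log2 0.21, SE 0.07, adjusted p 0.00785). ADAR, which edits double-stranded RNA, was not called in 786O and fell 1.15-fold in WT8 (log2 -0.20).

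RSAD2 (viperin) and CMPK2, which together make an antiviral nucleotide, lie head to head on chromosome 2 with exons that overlap by 351 bases on opposite strands. RSAD2 fell from 48, 48 and 52 to 20, 4 and 13 counts in 786O (log2 -1.99, SE 0.40, adjusted p 1.15e-04) and from 25, 37 and 22 to 5, 2 and 3 in WT8 (log2 -3.08, SE 0.53, adjusted p 3.97e-06). CMPK2 fell in 786O from 72, 106 and 90 to 12, 30 and 12 counts (log2 -2.30, SE 0.36, adjusted p 3.89e-06) and had 0 counts in all 6 WT8 libraries, so no change can be given there. A count of 0 allows up to 3 counts, or 0.0826 to 0.0904 CPM in the WT8 libraries. ISG20, an exonuclease that degrades RNA, was not called in 786O (log2 -0.53, adjusted p 0.173) and fell 3.39-fold in WT8, from 86, 84 and 108 to 27, 32 and 26 counts. Without 786O shControl replicate 3 or 786O shBMAL1 replicate 1, ISG20 was called lower in 786O too, at log2 -0.75 and -0.82.

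SAMD9 and SAMD9L, neighbours on chromosome 7 that restrain poxviruses and cell growth, fell in both lines. SAMD9 fell 1.73-fold in 786O and 2.49-fold in WT8, and SAMD9L by 1.51-fold in 786O and by 7.80-fold in WT8, from 91, 89 and 100 to 8, 16 and 13 counts. TRIM22 (chromosome 11, 5710840 to 5758319), a tripartite motif protein that restricts several viruses, fell by 1.27-fold in 786O, from 726, 852 and 851 to 668, 607 and 632 counts (log2 -0.35, SE 0.12, adjusted p 0.0169). In WT8 it was close to the floor, at 18, 24 and 9 counts with shControl and 0, 0 and 5 with shBMAL1 (log2 -3.31, SE 0.60, adjusted p 1.64e-05), so the size of its fall there rests on few counts. TRIM22 also overlaps 642 bases of OR56B1 on the same strand. TRIM21, an antibody receptor in the cytoplasm, and SP110, a nuclear body protein, were not called in 786O and fell in WT8, at log2 -0.64 and -0.35. XAF1 (chromosome 17, 6658766 to 6678966), a promoter of apoptosis, fell from 571, 571 and 551 to 347, 321 and 370 counts in 786O and from 19, 12 and 24 to 2, 1 and 6 in WT8.

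Of the remaining interferon-induced genes, IFI6, a mitochondrial and endoplasmic reticulum protein, fell 1.53-fold in 786O and 5.07-fold in WT8. IFI44 (chromosome 1, 79115481 to 79129763) went from 478, 462 and 458 to 315, 389 and 348 counts in 786O and from 351, 374 and 311 to 49, 32 and 35 in WT8, a fall of 1.33-fold and 9.28-fold. Its neighbour IFI44L was not called in 786O and went from 21, 7 and 16 counts to 0 in all 3 libraries in WT8, at least 5.03-fold lower. EPSTI1 did the same from 9, 15 and 10 counts, at least 3.96-fold lower, and was also not called in 786O. The call for IFI27 (chromosome 14, 94571182 to 94583032) in 786O was weak. It had 110, 147 and 112 counts with shControl and 95, 103 and 105 with shBMAL1 (log2 -0.28, SE 0.12, adjusted p 0.0643), and was not called without 786O shControl replicate 2 (log2 -0.14) or 786O shBMAL1 replicate 1 (log2 -0.24). In WT8 it fell from 3544, 3026 and 3457 to 1442, 1357 and 1236 counts (log2 -1.37, SE 0.07, adjusted p 9.18e-19). RTP4 (chromosome 3, 187086173 to 187089864), a chaperone of membrane receptors, had 21, 26 and 27 against 14, 14 and 14 counts in 786O (log2 -0.81, adjusted p 0.164) and at most 2 counts in any WT8 library.

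**Figure D2:**
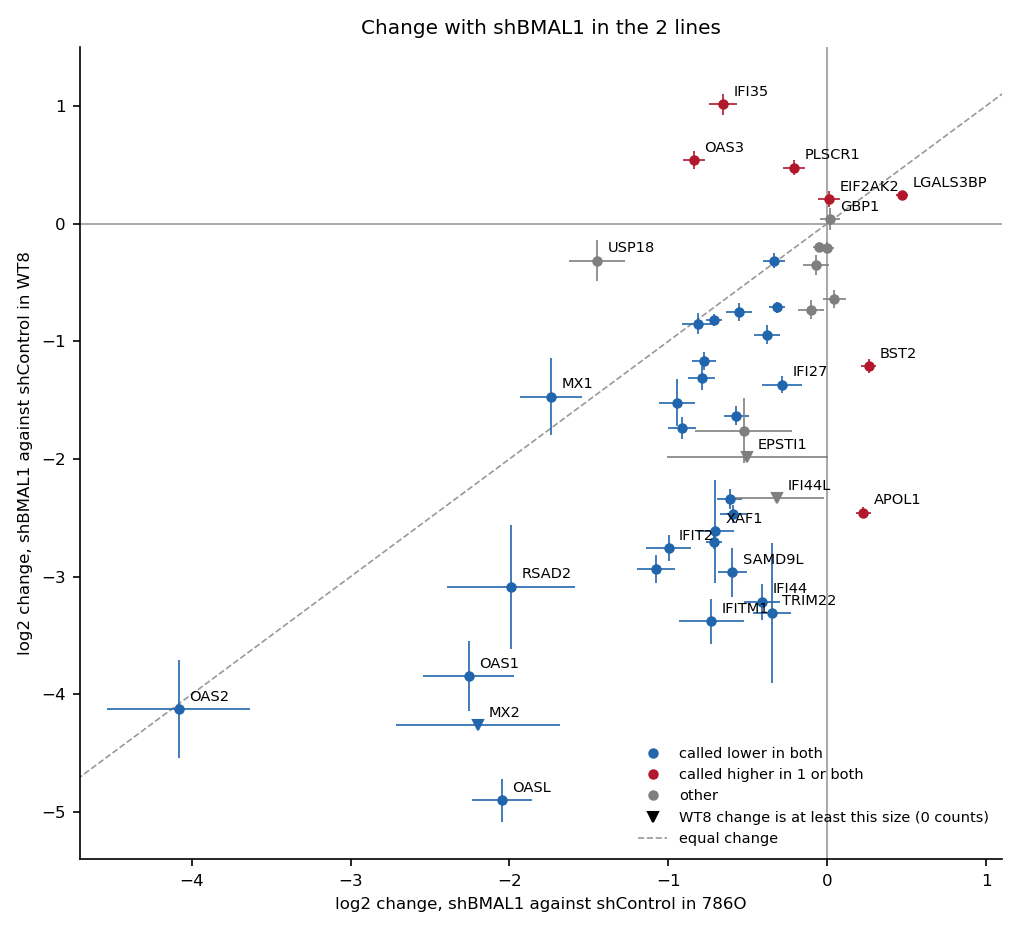
Scatter plot of the log2 change with shBMAL1 in 786O (x axis) against that in WT8 (y axis) for 45 members, with standard errors as bars, the line of equal change dashed, and triangles for 3 members whose WT8 change is a lower bound in size. Blue marks members called lower in both lines, red those called higher in at least 1 and grey the others. Most points lie in the lower left below the dashed line, IFI35, OAS3 and PLSCR1 lie in the upper left, and BST2 and APOL1 lie in the lower right.

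Few members were called higher with shBMAL1, 3 in 786O and 5 in WT8, against 24.5% and 32.9% of all genes tested. The 5 called in opposite directions in the lines were 10.6% of the members tested, near the 12.1% of all genes. LGALS3BP (chromosome 17, 76967320 to 76976029), a secreted glycoprotein that binds galectins, was the 1 member called higher in both lines. It went from 14284, 14355 and 13977 to 19260, 19909 and 19900 counts in 786O, a 1.39-fold rise (log2 0.47, SE 0.04, adjusted p 4.36e-12). In WT8 it went from 18911, 17247 and 19003 to 23096, 22608 and 22005 counts, a 1.18-fold rise (log2 0.24, SE 0.04, adjusted p 2.41e-06). In both lines the lowest shBMAL1 library was above the highest shControl library. APOL1 (chromosome 22, 36649117 to 36663576), the trypanosome-killing apolipoprotein whose variants are known for kidney disease, rose in 786O from 23669, 24356 and 24844 to 29630, 26973 and 28679 counts (log2 0.23, SE 0.05, adjusted p 1.17e-04). In WT8 it fell 5.49-fold, from 13251, 12383 and 13020 to 2630, 2498 and 2203 counts (log2 -2.46, SE 0.05, adjusted p 1.21e-30). IFI35 (chromosome 17, 41158757 to 41166473), a protein that regulates innate signalling, showed the reverse. It fell from 738, 760 and 710 to 467, 505 and 429 counts in 786O (log2 -0.66, SE 0.09, adjusted p 9.38e-08) and rose in WT8, from 302, 271 and 294 to 637, 625 and 556 counts, a 2.02-fold rise (log2 1.01, SE 0.09, adjusted p 5.20e-12).

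PLSCR1 (chromosome 3, 146232967 to 146262643), a phospholipid scramblase that blocks viral entry, followed the pattern of IFI35 with smaller changes. It fell 1.16-fold in 786O, from 1183, 1182 and 1259 to 985, 1094 and 1052 counts (log2 -0.21, SE 0.07, adjusted p 0.0146), and rose 1.39-fold in WT8, from 1869, 1380 and 1696 to 2373, 2328 and 2435 counts (log2 0.48, SE 0.07, adjusted p 1.11e-07). The groups did not overlap in either line. The rises of the members were small: requiring a fold change over 1.5, 0 members were called higher in 786O and 1, IFI35, in WT8.

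**Figure D3:**
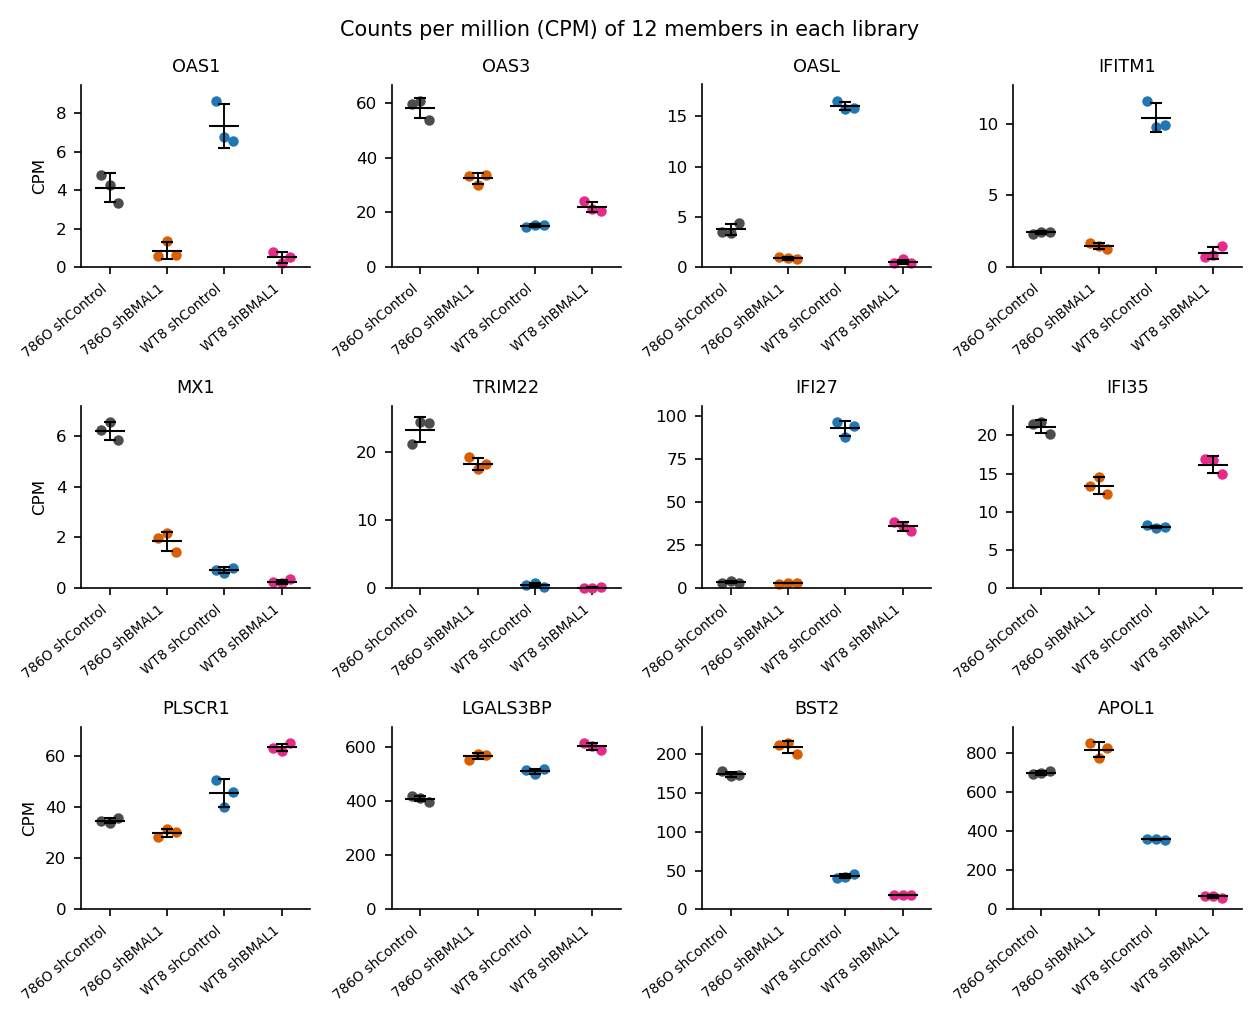
CPM of 12 members in every library (points), by group along the x axis, with the group mean (horizontal mark) and SD (bars, n = 3), on linear axes from 0. OAS1, OASL, IFITM1 and MX1 are lower with shBMAL1 in both lines, OAS3, IFI35 and PLSCR1 are lower with shBMAL1 in 786O and higher in WT8, BST2 and APOL1 are the reverse, and LGALS3BP is higher in both.

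The difference between the responses of the lines, the log2 change in WT8 minus that in 786O, was tested as an interaction. It was called negative for 32 of 47 members and positive for 5, against 28.5% and 27.4% of all genes tested, with a median of -0.68 over the members and -0.03 over all genes. ARNTL itself fell 3.08-fold in 786O and 5.57-fold in WT8, with an interaction of log2 -0.86 (SE 0.19, adjusted p 3.69e-04). The lines were thus not compared at equal depletion, and the part of this in the differences of the members was not tested. Under the naming rule the most negative values among the members were in TRIM22 (log2 -2.96, SE 0.62, adjusted p 1.97e-04), OASL (log2 -2.85, SE 0.30, adjusted p 3.43e-10) and IFI44 (log2 -2.80, SE 0.19, adjusted p 9.35e-15). The size and rank of TRIM22 rest on few counts in WT8, 18, 24 and 9 with shControl and 0, 0 and 5 with shBMAL1. MX2, IFI44L and EPSTI1 are among the 32 and had 0 counts in WT8 shBMAL1, so no size is given for them. The most positive were in IFI35 (log2 1.67, SE 0.13, adjusted p 9.73e-14), OAS3 (log2 1.38, SE 0.10, adjusted p 1.18e-13) and USP18 (log2 1.13, SE 0.25, adjusted p 2.54e-04). PLSCR1 was also positive, at 0.69, and EIF2AK2, at 0.20, lost its call in 10 refits and also at an adjusted p under 0.05 or a fold change over 1.5. All 4 IFIT genes, all 4 membrane restriction factors and both SAMD9 genes had a more negative change in WT8, whereas OAS2, MX1, GBP1, HERC6, PARP14, DTX3L and DDX60L were not called for a difference (adjusted p 0.158 to 0.988).

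To see how the lines differed without BMAL1 depletion, WT8 shControl was compared with 786O shControl. VHL and other differences between the lines cannot be told apart in this comparison. The members did not move as a group, since 22 were called lower and 20 higher in WT8, against 40.2% and 39.3% of all genes tested. The median log2 difference was -0.10 for members and 0.00 for all genes. TRIM22 had 726, 852 and 851 counts in 786O shControl and 18, 24 and 9 in WT8 shControl, 48.9-fold lower in WT8 (log2 -5.61, SE 0.19, adjusted p 1.20e-21). XAF1 was 31.7-fold lower (log2 -4.99, SE 0.17, adjusted p 3.83e-24) and GBP1 10.6-fold lower (log2 -3.40, SE 0.08, adjusted p 1.05e-29). CMPK2, with 0 counts in WT8, was at least 30.8-fold lower. On the other side, IFI27 was 26.2-fold higher in WT8, at 92.6 ± 4.42 against 3.53 ± 0.581 CPM (SD, n = 3; log2 4.71, SE 0.09, adjusted p 5.50e-32). IFIT2, with 206, 172 and 260 counts in 786O shControl and 1324, 1398 and 1213 in WT8 shControl, was 5.97-fold higher (log2 2.58, SE 0.11, adjusted p 6.99e-21) and IFITM1 4.28-fold higher (log2 2.10, SE 0.17, adjusted p 1.54e-13). With library totals in place of TMM the median of all genes in this comparison shifted by 0.12, and 19 members were lower and 22 higher.

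Per kilobase of transcript, the most abundant members in 786O shControl were APOL1 at 249.6, IFITM3 at 227, LGALS3BP at 185 and BST2 at 174 CPM per kb. In WT8 shControl they were IFITM3 at 797, LGALS3BP at 232, IFI27 at 129 and APOL1 at 128 CPM per kb. In WT8 shBMAL1 LGALS3BP led at 274, followed by IFITM3 at 122, IFI27 at 50.1 and ADAR at 34.8 CPM per kb. In 786O shControl ISG15 was at 37.3, IFIT1 at 2.99 and MX1 at 2.24 CPM per kb.

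The same lines were then compared with shBMAL1 in both, a comparison added after the values were seen. It shares no library with the comparison under shControl, but its libraries are the shBMAL1 libraries of the comparisons above. In the fit its value is the difference with shControl plus the interaction, so it adds no separate evidence on the interaction. Of the 20 members that were higher in WT8 with shControl, 8 were still higher with shBMAL1, 3 were not called and 9 were lower. Of all 6616 genes higher in WT8 with shControl, 64.7% were still higher, 24.7% were not called and 10.6% were lower. Over all tested members 32 were lower in WT8 and 10 higher, against 37.0% and 36.0% of all genes tested, with a median log2 difference of -0.56. IFITM3 went from 3.51-fold higher in WT8 with shControl to 1.14-fold lower with shBMAL1, at 74.5 CPM in WT8 against 84.8 CPM in 786O (log2 -0.19, SE 0.05, adjusted p 0.00232). With library totals in place of TMM the last difference was not called (log2 -0.08). OASL went from 4.25-fold higher to 1.70-fold lower (log2 -0.77, SE 0.26, adjusted p 0.0103), and IFIT1 from 2.83-fold higher to 1.28-fold lower (log2 -0.36, SE 0.13, adjusted p 0.0165). ISG15 was not called with shBMAL1, at 13.8 ± 0.742 against 13.9 ± 0.706 CPM (SD, n = 3; adjusted p 0.932), and neither was IFITM2 (adjusted p 0.181). IFIT1 was not called without 786O shBMAL1 replicate 2 (log2 -0.20) or WT8 shBMAL1 replicate 2 (log2 -0.26). Of the 9 called lower, OAS1 lost its call in 8 refits, among them DESeq2 and the fits without 786O shBMAL1 replicate 2 (log2 -0.24) or WT8 shBMAL1 replicate 2 (log2 -0.39). IFITM1 lost it without 786O shBMAL1 replicate 1 (log2 -0.45), WT8 shBMAL1 replicate 1 (log2 -0.34) or WT8 shBMAL1 replicate 2 (log2 -0.43). PARP9 lost it with library totals and without 786O shBMAL1 replicate 3 (log2 -0.11) or WT8 shBMAL1 replicate 3 (log2 -0.15). Of the 8 still higher, LGALS3BP lost its call without 786O shBMAL1 replicate 1 (log2 0.07). IFI27 and IFIT2 stayed higher in WT8, at log2 3.63 and 0.82. IFI35 turned the other way, from 2.64-fold lower in WT8 with shControl to 1.21-fold higher with shBMAL1.

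**Figure D4:**
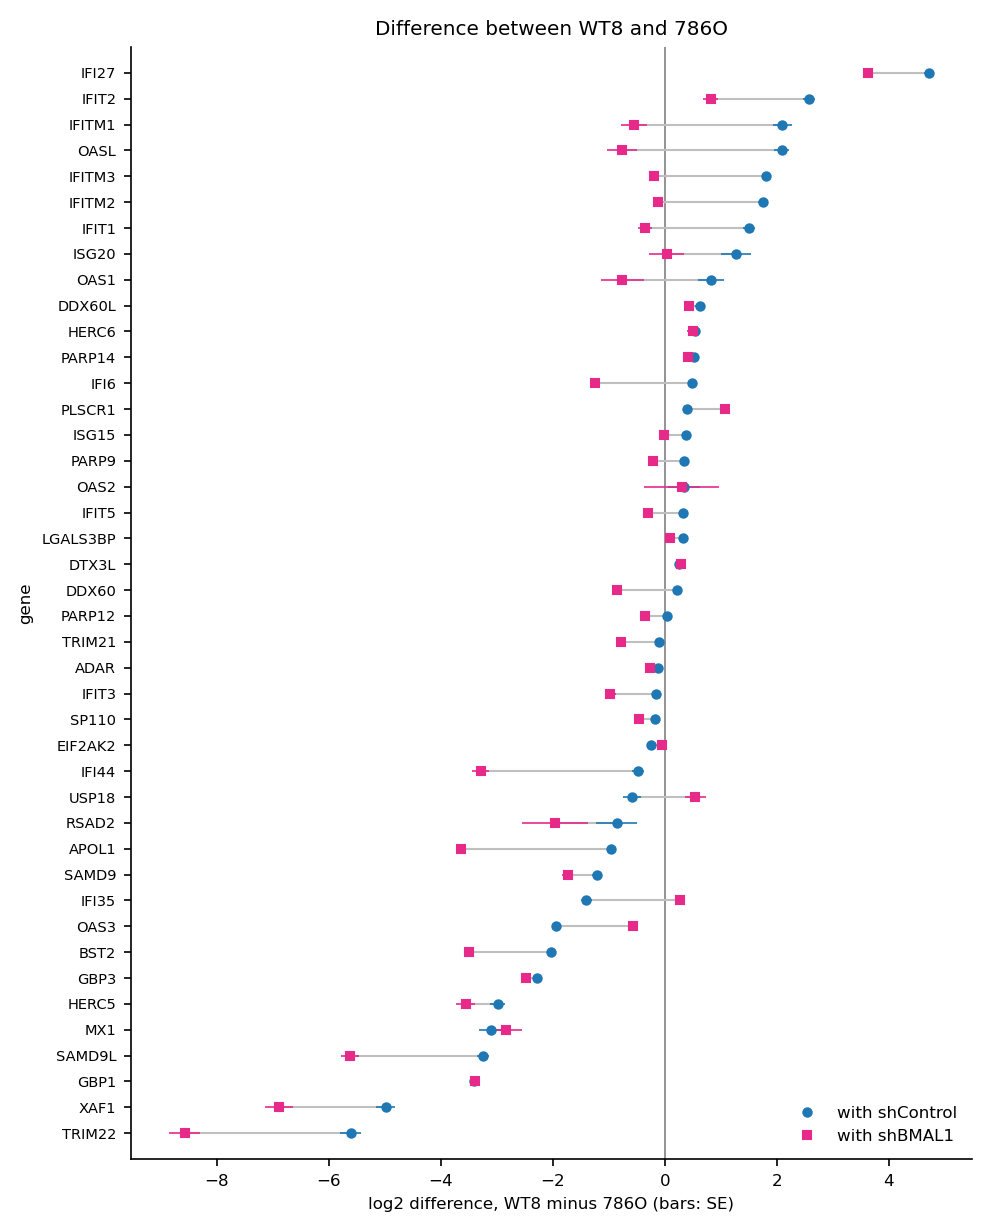
Log2 difference between WT8 and 786O (x axis, with SE) for 42 tested members with counts in all 4 groups, ordered by the difference with shControl (circles) and joined to the difference with shBMAL1 (squares). MX2, CMPK2, IFI44L, EPSTI1 and RTP4, with 0 counts in WT8 shBMAL1, are left out. The squares of IFITM1, IFITM2, IFITM3, OASL and IFIT1 lie near or below 0 where their circles lie above 1, and those of IFI35 and USP18 lie to the right of their circles.

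The upstream parts of the interferon pathway were examined on a list of 37 genes, 29 of which were tested. In 786O 15 were called lower and 7 higher with shBMAL1, against 24.4% and 24.5% of all genes tested, with a median log2 change of -0.24. In WT8 12 were lower and 12 higher, near the 36.9% and 32.9% of all genes tested, and the median of -0.04 was that of all genes. None of the 8 interferon genes on the list passed the filter. IFNA1, IFNK, IFNG and IFNL3 had 0 counts in all 12 libraries, and IFNB1 had at most 2, IFNL1 at most 1, IFNL2 at most 3 and IFNE at most 8 in any library, so a change in interferon transcripts was not detectable at this depth. The transcription factors STAT2 and IRF9 fell in both lines. STAT2 had log2 changes of -0.37 in 786O and -0.50 in WT8. IRF9 went from 569, 507 and 578 to 360, 397 and 389 counts in 786O (log2 -0.53, SE 0.09, adjusted p 9.45e-06) and from 1359, 1158 and 1389 to 410, 414 and 491 in WT8 (log2 -1.62, SE 0.09, adjusted p 1.91e-18).

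IRF9 had a more negative change in WT8, at an interaction of -1.10 (adjusted p 2.52e-09), while STAT2 was not called for a difference (adjusted p 0.263). The RNA sensors DDX58, IFIH1 and DHX58 fell in both lines, at log2 -0.46, -0.99 and -1.48 in 786O and -1.42, -1.79 and -1.96 in WT8. In WT8 DHX58 went from 16, 11 and 19 to 5, 4 and 3 counts, so its change rests on few counts. IRF9 and DDX58 each overlap an unnamed protein-coding gene on the same strand, and the receptor chain IFNAR2 overlaps IFNAR2-IL10RB on the same strand. For IRF9 the overlap is nearly as long as its transcript of 1626 bases. How reads in shared exons were assigned is not stated, so the values of IRF9, DDX58 and IFNAR2 are uncertain for that reason. Of the 10 sensors and adaptors on the list, 6 were lower and 2 higher in 786O, against 24.4% and 24.5% of all genes tested. In WT8 5 were lower and 4 higher, against 36.9% and 32.9%. The 4 higher there were MB21D1 (cGAS), TICAM1, IKBKE and TBK1, at log2 0.91, 0.74, 0.51 and 0.28. The largest fall on the list in 786O was in TLR3, a receptor for double-stranded RNA in endosomes, from 316, 316 and 319 to 101, 93 and 94 counts (log2 -1.72, SE 0.17, adjusted p 1.39e-10). In WT8 it was in TMEM173 (STING), the adaptor of DNA sensing, from 1661, 1260 and 1535 to 332, 349 and 341 counts (log2 -2.18, SE 0.08, adjusted p 9.63e-23). The receptor chains IFNAR1 and IFNAR2 were not called in 786O and rose in WT8 (log2 0.37 and 0.45), and the largest rise there was in IFNLR1, the receptor of type III interferon, from 73, 53 and 56 to 117, 119 and 138 counts (log2 0.98). SOCS1, a brake on JAK signalling, had the largest rise in 786O, from 66, 44 and 60 to 102, 135 and 108 counts (log2 1.02, SE 0.23, adjusted p 3.59e-04), and fell in WT8 (log2 -0.72, SE 0.26, adjusted p 0.0168).

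**Figure D5:**
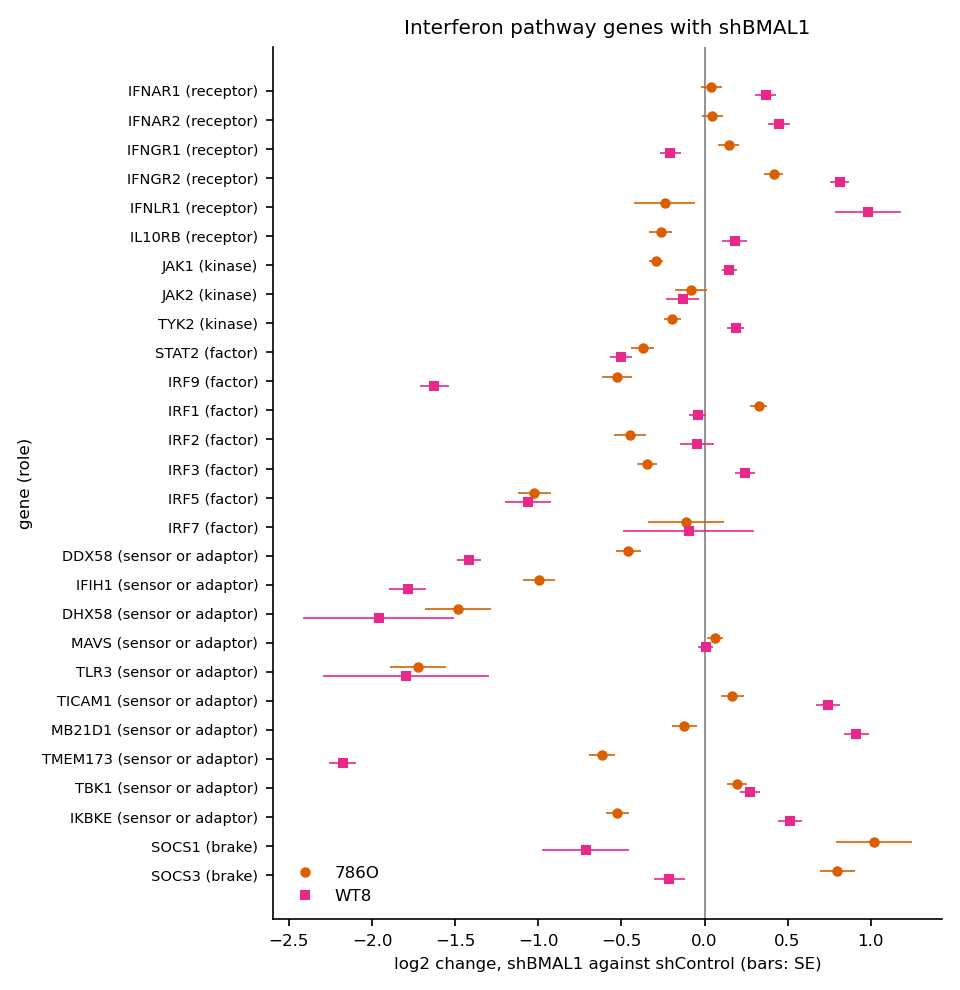
Log2 change with shBMAL1 in 786O (circles) and WT8 (squares), with SE, for tested genes of the interferon pathway, ordered by role. STAT2, IRF9 and the RNA sensors DDX58, IFIH1 and DHX58 lie left of 0 in both lines, while the receptor chains IFNAR1 and IFNAR2 lie to the right of 0 in WT8. MB21D1, TICAM1, IKBKE and TBK1 also lie to the right of 0 in WT8.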

How the data were processed

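Per the labels and the study's methods, RNA from 12 biological replicates was made into stranded mRNA libraries, sequenced on a BGI instrument, aligned to GRCh37 with SeqMan NGen and counted in ArrayStar. The processing notes of the submitters name hg38, STAR and DESeq2 instead, and which applies to the table is not settled. The annotation, use of strand and handling of reads with several alignments are not given in the sources used here. The values the authors deposited were estimated counts per gene, unscaled, with 0.028 in place of 0 (47.0% of values) and 5.67% of the rest fractional. They were rounded, with 0.028 set to 0, where plain counts had been assumed. A count of 2 was more frequent (14904 values) than a count of 1 (11312 values), so mates of a pair may have been counted separately and bounds against 3 counts may be too high.

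Genes were kept by filterByExpr (16838 of 26925 with a count), scaled by TMM and fitted with edgeR 4.0.16 (robust quasi-likelihood test, R 4.3.3) as a mean per group over 12 libraries, with Benjamini-Hochberg adjustment and calls under 0.1. The biological coefficient of variation was 5.70%. SE was obtained from the log2 change and the F statistic of the test (size over root F). The script was tested on simulated data. No molecular identifiers are mentioned, so floors describe counting error alone. Positions and transcript lengths are from GENCODE 44 on GRCh37, and promoters from RefSeq on GRCh38.p14.

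The members, the pathway and marker lists and the tests were chosen with earlier results of these data known. Values in every library are given for the 4 largest falls in each line (called, mean of at least 50 counts), members called higher, in opposite directions or in neither line, the 3 most extreme interactions and line differences each way, and the member under the filter. On the pathway list these are STAT2, IRF9, the interferon genes and the largest fall and rise in each line. 1 pathway gene is counted but not reported here. Other genes were named by role after their values were seen. Alternatives were RLE or library totals, no filter, DESeq2 1.42.0, a replicate block, fits of 6 libraries, each library left out, an adjusted p under 0.05 and a fold change over 1.5.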

Additional observations from a re-analysis of the deposited data

Results flagged for a closer look

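The change with shBMAL1 differed between the lines, by the interaction term of edgeR over the 12 libraries, in 32 members with a more negative change in WT8 and in 5 with a more positive one. ARNTL, the target of the hairpin, also had a more negative change in WT8, at log2 -0.86. Members called in opposite directions had interactions of 1.38 (OAS3), 1.67 (IFI35), 0.69 (PLSCR1), -1.47 (BST2) and -2.68 (APOL1) on the log2 scale. The other members with the most extreme interactions under the naming rule were TRIM22 at -2.96, OASL at -2.85, IFI44 at -2.80 and USP18 at 1.13. The size for TRIM22 rests on few counts in WT8. Groups of 3 libraries are too small for a test of single outlying libraries.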

How the results depend on the processing

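No call of direction was reversed under any alternative. Requiring a fold change over 1.5 moved the counts most: members called higher numbered 0 in 786O and 1 in WT8 with shBMAL1, 10 between the lines with shControl and 3 with shBMAL1, and pathway genes called numbered 8 in 786O and 13 in WT8. All other alternatives kept the counts within 1.5 times of those given. Without 1 library, members lower with shBMAL1 numbered 32 to 34 in 786O and 38 to 39 in WT8, and members higher 3 and 5. With a replicate block 33 members were lower and 3 higher in 786O, 38 lower and 5 higher in WT8, 32 interactions were negative and 4 positive in place of 5, and no other call of a member with shBMAL1 changed. Nothing in the labels ties the numbers across groups, and deviations of same-numbered libraries from their group means correlated with r of -0.05 to 0.05. In that fit, as with RLE, library totals and DESeq2, EIF2AK2 lost its interaction. IFIT3, at log2 -0.15 between the lines with shControl, lost its call in 8 refits, among them RLE and DESeq2, and at an adjusted p under 0.05 or a fold change over 1.5. Members with few counts, such as MX2, IFI44L, EPSTI1, RTP4 and LAMP3, are limited by depth.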
